A study of Mus musculus with 2 samples.

Results

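Fibroblast growth factor (FGF) genes, the genes of their receptors and the genes that act as feedback on their signal were followed in perivascular cells (PVCs) of the mouse aorta with and without Kai1. The members were all gene symbols made of Fgf and a number, Fgfr1 to Fgfr4, the receptor-like gene Fgfrl1, Spry1 to Spry4, Spred1 to Spred3, Dusp6, Etv4 and Etv5. This gave 37 genes of the 20211 distinct symbols in the deposited tables, of which 22 were ligands and 5 receptors. RNA was sequenced from primary PVCs of C57BL/6 mice, with 1 library of wild-type (WT) cells and 1 from Kai1 KO cells, called Kai1-/- below. Per the labels, both cultures were grown in DMEM with 10% FBS, while the methods give a higher serum content for primary PVCs. The age of the mice is given only as a range for adult animals of either sex, and how the Kai1 deletion was made is not given in the sources used here. With 1 library per genotype there was no replicate check, no p-value could be computed, and any difference between the libraries includes differences between animals, cultures and library preparations.

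Most FGFs are secreted proteins that bind receptor tyrosine kinases on the cell surface together with heparan sulfate. The active receptor recruits adaptors that switch on RAS and the kinase ERK, which raises the transcription factors Etv4 and Etv5. The same signal induces its own inhibitors, the Sprouty and Spred proteins, which act on the path from receptor to RAS and RAF, and Dusp6, a phosphatase that removes phosphate from ERK. In the vessel wall, FGF2 is known as a growth factor for smooth muscle and endothelial cells.

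Expression was given in RPKM, reads scaled by transcript length and by the mapped reads of the library, so that levels of different genes can be set side by side. Ratios are given as log2 of Kai1-/- over WT with 0.1 added to either value, and this addition makes the difference of weakly expressed genes look smaller. Counts of genes used those whose RPKM averaged 1 or more, called genes kept, and the 2-fold line of the study was used without its test. Low RPKM values moved in steps, from which the depth was estimated at about 29600000 reads for WT and 26500000 for Kai1-/- PVCs, and reads per gene estimated from these steps gave the 95% intervals of the ratios by the exact Clopper-Pearson method. Those intervals are of the ratio without the added 0.1 and cover counting error only. The targeted gene Cd82, which encodes KAI1, stood at 12.8 RPKM in WT and 2.62 RPKM in Kai1-/- PVCs. Which part of Cd82 was deleted is not given, so that remaining reads could come from outside it. The Y-linked genes Ddx3y, Eif2s3y, Kdm5d and Uty had RPKM values from 0.479 to 6.56 in WT PVCs and were listed at 0 in Kai1-/- PVCs, and sex and genotype cannot be told apart. Of 10 mural marker genes, 9 reached an RPKM of 1 in WT and 5 in Kai1-/- PVCs, where Mcam, Myh11, Des and Notch3 were below 1. The pericyte marker Rgs5 was at 0.0630 in WT and 0.233 in Kai1-/- PVCs.

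Of the 37 members, 15 were kept. Of these 15, 6 were more than 2-fold lower in Kai1-/- PVCs, namely Fgf2, Fgf7, Fgf18, Spry1, Spry2 and Spred1, and 1 was more than 2-fold higher, Etv4. These shares were 40% and 6.67% of the members kept, against 7.81% of all 10068 genes kept that were more than 2-fold lower and 7.98% that were more than 2-fold higher. The median log2 ratio was -0.50 over the 15 members and 0.08 over all genes kept. The remaining 8 members kept lay within 2-fold, and all 4 expressed receptor genes were among them. Scaling of the libraries moved the whole distribution of genes. The 786 genes lower and 803 higher became 1251 and 447 with equal upper quartiles, 1816 and 286 with equal sums of RPKM, and 1856 and 278 with both libraries scaled to Gapdh, where the median of all genes was -0.19, -0.39 and -0.41. With equal sums or Gapdh scaling, 7 of the 15 members were more than 2-fold lower, the added gene being Fgfr1, and 1 was higher. Under these 2 scalings, 18.0% and 18.4% of all genes kept were lower, and 2.84% and 2.76% were higher.

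**Figure D1:**
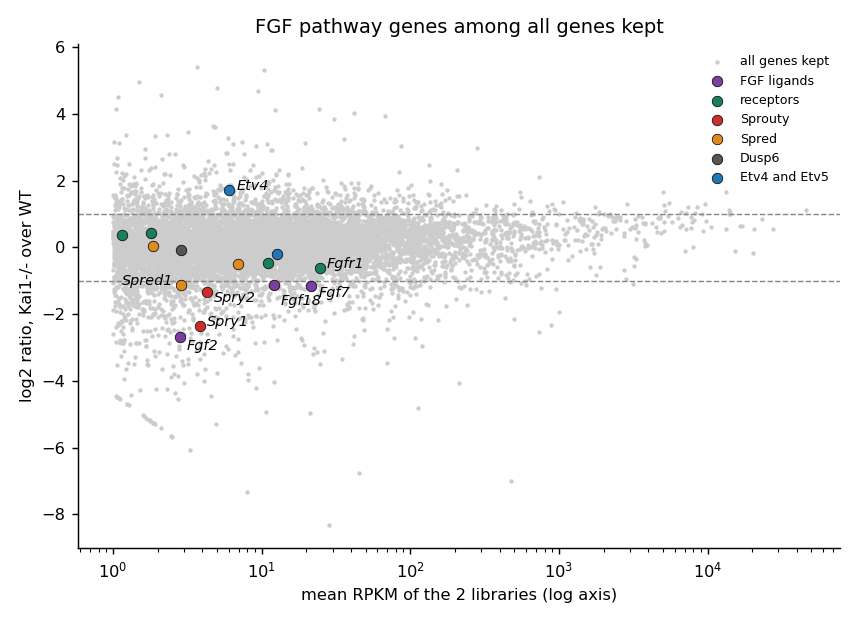
The log2 ratio of Kai1-/- to WT of each of the 10068 genes kept is plotted against the mean RPKM of the 2 libraries on a log axis, with 1 point per gene and the 15 members kept in colour by role. The dashed lines mark 2-fold, and 6 members lie below the lower line and Etv4 above the upper line.

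Of the 22 ligand genes, 3 were expressed at an RPKM of at least 1, and all 3 were lower in Kai1-/- PVCs. Fgf7, or keratinocyte growth factor, is made by mesenchymal cells and acts on epithelial forms of Fgfr2. Its RPKM was 29.6 in WT PVCs and 13.3 in Kai1-/- PVCs, or 45.0% of WT, a log2 ratio of -1.15 (95% interval -1.27 to -1.04, from about 2167 and 873 reads). In WT PVCs its level was above that of 88.9% of all symbols.

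Fgf18, a ligand known from bone and cartilage growth, went from 16.6 in WT to 7.50 in Kai1-/- PVCs, or 45.2% of WT, a log2 ratio of -1.14 (-1.41 to -0.89). The intervals of Fgf7 and Fgf18 overlapped. Fgf2, or basic FGF, is a ligand of several receptors that leaves the cell without a signal peptide, and it showed the lowest ratio of the 15 members kept. Its RPKM was 4.94 in WT and 0.684 in Kai1-/- PVCs, or 13.9% of WT, a log2 ratio of -2.68 (-3.61 to -2.15, from about 152 and 19 reads if the authors used the same transcript length). Only 1.20% of all genes kept had a lower ratio. The interval of Fgf2 did not overlap those of Fgf7 and Fgf18, so that the lower ratio of Fgf2 was larger than counting error.

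The summed RPKM of all ligands was 52.7 in WT PVCs and 22.7 in Kai1-/- PVCs. Fgf7 held 56.2% of this sum in WT and 58.7% in Kai1-/- PVCs, Fgf18 31.5% and 33.1%, and Fgf2 9.37% and 3.02%. The proportion of Fgf7 to Fgf18 was thus close to equal in both libraries while the total was 43.0% of WT.

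**Figure D2:**
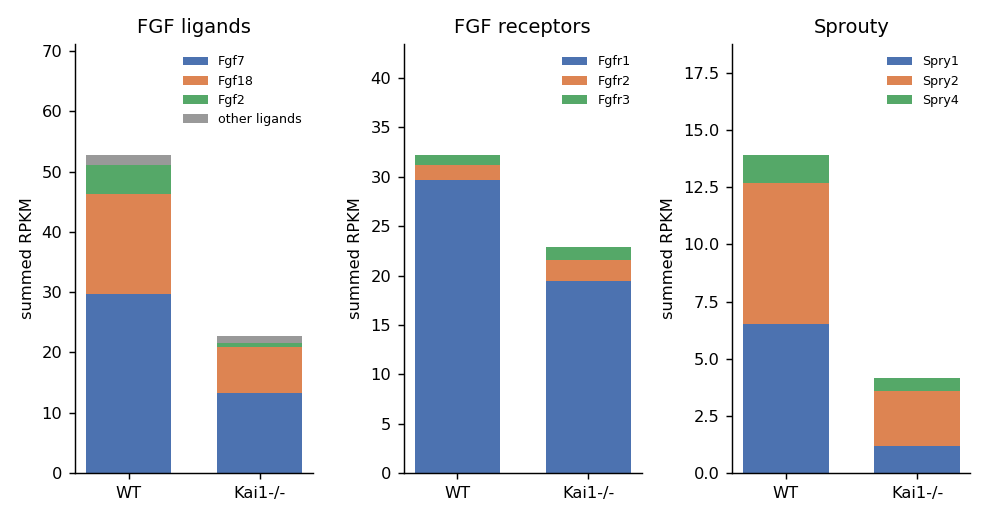
Bars give the RPKM of the ligand, receptor and Sprouty genes stacked within each library, with the WT library on the left and the Kai1-/- library on the right of each panel. The ligand sum went from 52.7 to 22.7, the sum of Fgfr1 to Fgfr4 from 32.2 to 22.8 and the Sprouty sum from 13.9 to 4.15, and Fgf7 and Fgfr1 made up the largest part of their bars in both libraries.

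The other 19 ligand genes stayed below an RPKM of 1 in both libraries, and 9 of them were listed at 0 in both. These 9 were Fgf4, Fgf6, Fgf8, Fgf9, Fgf12, Fgf15, Fgf17, Fgf20 and Fgf21, a group that holds embryonic ligands such as Fgf4 and Fgf8 and the endocrine ligands Fgf15 and Fgf21. Fgf10, which shares receptors with Fgf7, had an RPKM of 0.546 in WT PVCs, about 63 reads, and was listed at 0 in Kai1-/- PVCs. Fgf3 had 0.374 in WT PVCs, about 23 reads, and was also listed at 0 in Kai1-/- PVCs. Fgf22 went the other way, from 0.118 to 0.785, but its short annotated transcript makes these values about 1 and 8 reads if the authors used the same length. Its log2 ratio was 2.02, or 2.73 without the added 0.1 (0.26 to 8.63), so that the size of the difference is poorly determined if these read numbers hold.

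The remaining 7 low ligands did not exceed an RPKM of 0.224 in either library. Among them were the FGF homologous factors Fgf11, Fgf13 and Fgf14, intracellular proteins that bind sodium channels and do not act through FGF receptors, which are named here after their values were seen. Their RPKM values were 0.0710, 0.224 and 0.0643 in WT PVCs, or about 6, 15 and 6 reads, and each was listed at 0 in Kai1-/- PVCs, as was their relative Fgf12 in both. The other 4 had higher values in Kai1-/- PVCs, all close to 0, but the counting interval of each log2 ratio included 0. Fgf1, a ligand of all FGF receptors that lies 237404 bases from Spry4, had 0.109 and 0.222, about 12 and 22 reads. Fgf16 had 0.0119 and 0.105, about 1 and 4 reads, and the endocrine ligand Fgf23 had 0.0419 and 0.0464, about 2 and 2 reads. Fgf5 had 0.0164 in Kai1-/- PVCs, about 1 read, and was nearly at 0 in WT. In all, 5 of the 26 members above 0 in WT were listed at 0 in Kai1-/- PVCs, against 10.2% of all 14521 symbols above 0 in WT. Among all symbols with a WT level in the range of these 5 genes, 28.1% were listed at 0 in Kai1-/- PVCs, as were 5 of the 7 members in that range, which these 5 genes themselves set.

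Receptor genes differed less. Fgfr1, the main FGF receptor of mesenchymal cells, had an RPKM of 29.7 in WT PVCs and 19.5 in Kai1-/- PVCs, a log2 ratio of -0.61 (-0.68 to -0.54). It was 65.6% of WT and the most abundant member in both libraries, in WT only just above Fgf7 at 29.6. Fgfrl1, a receptor-like protein without the kinase domain, went from 12.7 to 9.24, a log2 ratio of -0.46 (-0.61 to -0.31). Both were lower in Kai1-/- PVCs under the scalings tried, all of which lowered the Kai1-/- values.

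Fgfr2 and Fgfr3 had higher values in Kai1-/- PVCs at a low level. The RPKM of Fgfr2 was 1.52 in WT and 2.07 in Kai1-/- PVCs, a log2 ratio of 0.43 (0.17 to 0.75), and that of Fgfr3 was 1.0 and 1.31, a log2 ratio of 0.36 (0.03 to 0.76). Their direction depended on the scaling, since both ratios were below 0 with equal sums of RPKM and with Gapdh scaling, where the lowest values were -0.05 and -0.10. Fgfr4 was listed at 0 in both libraries. Fgfr1 held 92.2% of the summed RPKM of Fgfr1 to Fgfr4 in WT and 85.2% in Kai1-/- PVCs, Fgfr2 held 4.71% and 9.07%, and Fgfr3 held 3.12% and 5.75%. These shares do not depend on the scaling of the libraries. RPKM per gene does not separate the splice forms of Fgfr1 to Fgfr3, which decide which ligands they bind.

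**Figure D3:**
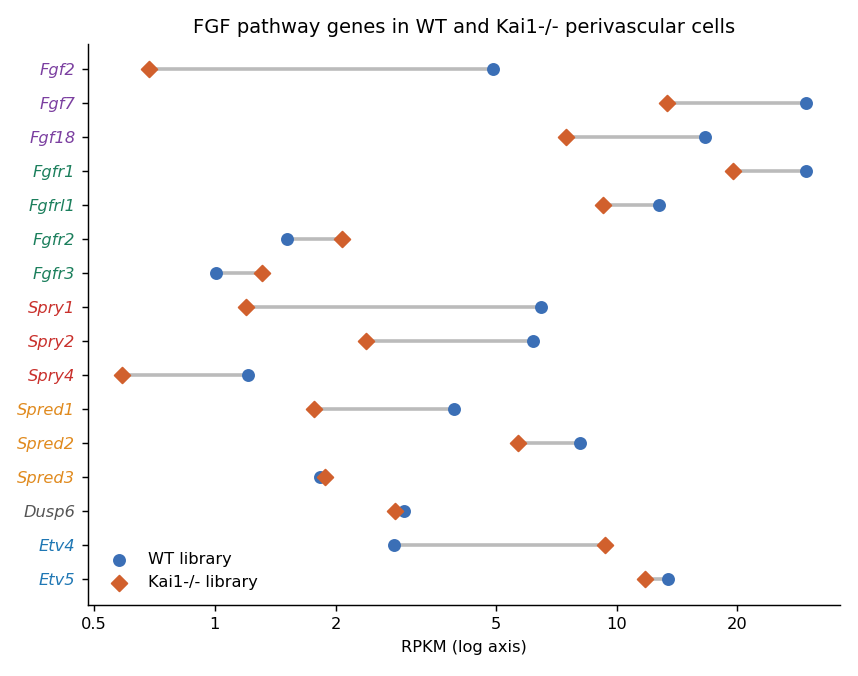
Each line joins the RPKM of a gene in WT (circle) and Kai1-/- PVCs (diamond) on a log axis, for the 16 members that reached an RPKM of 1 in either library, with names in colour by role. Fgf2 and Spry1 show the widest gaps with the Kai1-/- library lower, and Etv4 the widest with it higher.

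The Sprouty genes had lower values in Kai1-/- PVCs. Spry1 had an RPKM of 6.50 in WT and 1.19 in Kai1-/- PVCs, or 18.3% of WT, a log2 ratio of -2.35 (-2.81 to -2.11, from about 495 and 81 reads). Only 1.61% of all genes kept had a lower ratio. Spry2 went from 6.19 to 2.37, or 38.3% of WT, a log2 ratio of -1.35 (-1.69 to -1.07). Spry1 and Spry2 stood at nearly the same level in WT PVCs, and the interval of Spry1 in the comparison lay wholly below that of Spry2.

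Spry4 had 1.21 in WT and 0.588 in Kai1-/- PVCs, a log2 ratio of -0.93. Its mean RPKM of 0.897 lay just under the filter, so that it was not among the 15 genes kept, whereas Fgfr3 was just inside with 1.16. Without the added 0.1, the ratio of Spry4 was -1.04 (-1.48 to -0.63). Spry3 was listed at 0 in both libraries. The summed RPKM of the Sprouty genes in Kai1-/- PVCs was 29.9% of WT, and the share of Spry1 in this sum went from 46.8% to 28.7%.

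The Spred genes, relatives of Sprouty that hold the RAS regulator neurofibromin at the membrane, were not alike. Spred1 had an RPKM of 3.95 in WT and 1.77 in Kai1-/- PVCs, a log2 ratio of -1.12 (-1.37 to -0.96). With 1 in place of 0.1 added to each RPKM its ratio was -0.84, which is within 2-fold. Spred2 had 8.11 and 5.70, a log2 ratio of -0.50 (-0.65 to -0.36), and Spred3 had 1.83 and 1.88, a log2 ratio of 0.04 (-0.25 to 0.33). The intervals of Spred1, Spred2 and Spred3 did not overlap each other.

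Dusp6, the phosphatase of ERK, had an RPKM of 2.95 in WT and 2.81 in Kai1-/- PVCs, a log2 ratio of -0.07 (-0.36 to 0.21). No difference of Dusp6 was detectable at this depth, and the interval does not reach the ratios of Spry1, Spry2 or Spred1. The ETS transcription factors among the members also parted. Etv4 was at 2.80 in WT and 9.36 in Kai1-/- PVCs, 3.26-fold higher, a log2 ratio of 1.71 (1.49 to 1.99, from about 182 and 544 reads), and 98.4% of all genes kept had a lower ratio. Etv5 was the more abundant in both libraries, at 13.4 and 11.7, a log2 ratio of -0.19 (-0.31 to -0.08). Etv1, an ETS gene that is not a member and was below the filter, had 0.414 and 0.0938, a log2 ratio of -1.41. Of the members kept, Etv4 was thus the one more than 2-fold higher in Kai1-/- PVCs, and it stayed beyond 2-fold under every alternative tried, with ratios from 1.21 to 1.74.

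**Figure D4:**
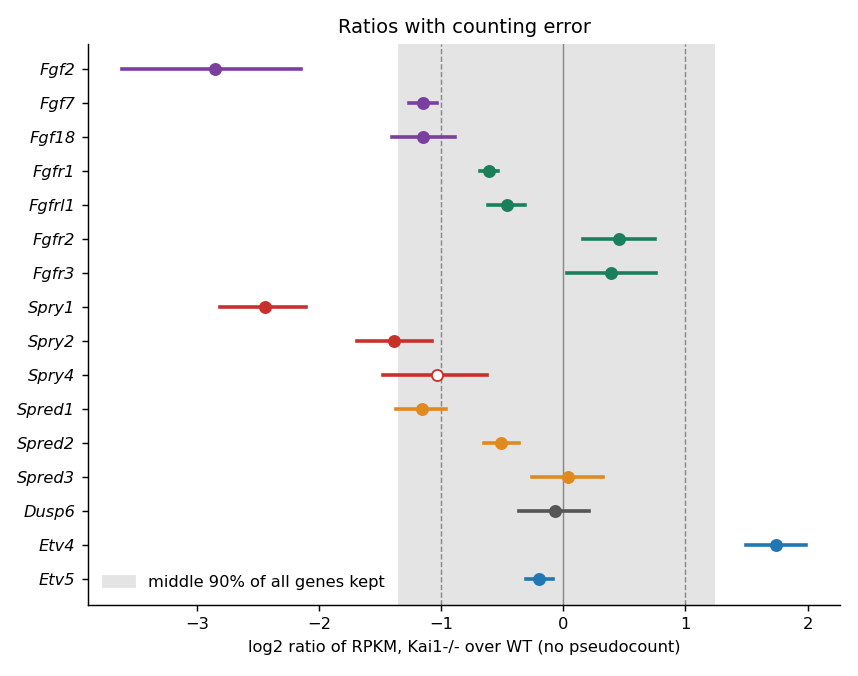
Points give the log2 ratio of RPKM of Kai1-/- to WT without an added constant, and lines its 95% interval from estimated reads, which covers counting error only, for 16 members. Dashed lines mark 2-fold and the grey band the middle 90% of all genes kept, from -1.34 to 1.23, and the intervals of Fgf2, Spry1 and Etv4 lie outside this band, while Spry4 (open circle) was below the filter on mean RPKM.

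Of the 15 members kept, those with the lowest ratios, Fgf2 and Spry1, lie near each other on chromosome 3, which was noticed after their values were seen. Positions are those of the GENCODE M1 annotation on the build used by the authors, NCBI37 (mm9). There, Fgf2 lies from 37211441 to 37304299 and Spry1 from 37538869 to 37543520, both on the plus strand and 234569 bases apart. The annotated body of Fgf2 takes in Bbs12, which had 0.317 in WT and 0.401 in Kai1-/- PVCs. The promoter of Fgf2 given below uses a RefSeq start on another build, which was not matched to this body. Nudt6 lies on the minus strand from 37303832 to 37319133, and its exons overlap those of Fgf2 by 242 bases, as those of Cetn4 do by 55. The RPKM of Nudt6 was 6.13 in WT and 3.44 in Kai1-/- PVCs, a log2 ratio of -0.82. Spata5, which lies between Fgf2 and Spry1, runs from 37318818 to 37478018 and had 2.10 and 2.12, a log2 ratio of 0.01 (-0.30 to 0.31). Spata5 was thus at the same level in both libraries within counting error. The library protocol in the labels describes no step that marks strand, so that reads from these overlaps cannot be told apart.

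The 250 bases before the transcription start of Fgf2 and Spry1, the neighbours with the lowest ratios among the members kept, and of Spry2, the other Sprouty gene past 2-fold, are given below from RefSeq on build GRCm38.p6, 5′ to 3′ on the strand of the gene. Fgf2 is at chr3:37348403-37348652 on the plus strand, Spry1 at chr3:37639697-37639946 on the plus strand and Spry2 at chr14:105896820-105897069 on the minus strand. Capitals mark GGGCGG, the core bound by Sp1.
Fgf2: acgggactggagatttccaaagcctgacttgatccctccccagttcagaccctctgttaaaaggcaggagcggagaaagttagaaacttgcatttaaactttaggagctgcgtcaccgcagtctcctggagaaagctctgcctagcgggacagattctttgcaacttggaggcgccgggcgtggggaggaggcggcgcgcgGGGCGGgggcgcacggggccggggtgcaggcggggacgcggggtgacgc
Spry1: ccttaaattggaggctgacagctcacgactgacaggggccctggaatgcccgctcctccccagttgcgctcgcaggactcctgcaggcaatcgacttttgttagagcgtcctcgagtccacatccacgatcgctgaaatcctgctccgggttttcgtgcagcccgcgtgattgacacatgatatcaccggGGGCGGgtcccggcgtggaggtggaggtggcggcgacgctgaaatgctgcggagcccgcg
Spry2: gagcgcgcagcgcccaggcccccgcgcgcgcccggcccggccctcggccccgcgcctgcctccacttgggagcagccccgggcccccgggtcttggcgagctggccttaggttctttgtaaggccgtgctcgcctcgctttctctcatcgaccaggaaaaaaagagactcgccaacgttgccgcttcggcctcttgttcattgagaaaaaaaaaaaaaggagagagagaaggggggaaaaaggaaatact

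Windows of this kind were found for 27 of the 37 members, 35 windows in all, as some genes have several starts. Both strands were searched for GGGCGG (Sp1), CCGGAAG (ETS factors), TGANTCA (AP-1) and TGACGTCA (CREB and ATF), which do not contain each other. GGGCGG was in 23 of the 35 windows, or 65.7%, against 42.6% of all 21262 windows of protein-coding genes, and it stood 49 bases before the start in Fgf2 and 60 bases before it in Spry1. CCGGAAG was in 1 window, that of Fgfrl1, or 2.86% against 8.98%, TGANTCA in 2 windows, or 5.71% against 6.13%, and TGACGTCA in 0 against 1.92%. A match or its absence describes these letters in these windows only.

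Genes around the receptors were compared through 3 lists taken from general knowledge. The lists were compiled with earlier results of these data known, so that their counts are a description only. Genes kept that were past 2-fold are named, and others only as examples chosen after their values were seen. Of 17 co-receptors and extracellular modulators of FGF signalling, 11 were kept, and 5 were more than 2-fold lower and 0 higher, against 7.81% and 7.98% of all genes kept, with a median log2 ratio of -0.95. Flrt2, a membrane protein of a family that binds FGF receptors, went from 23.1 RPKM in WT to 5.03 in Kai1-/- PVCs, a log2 ratio of -2.18. Gpc1, a heparan sulfate proteoglycan, went from 20.4 to 7.77 (-1.38), and Sulf1, an enzyme that removes sulfate groups from heparan sulfate and is known to lower FGF signalling, from 35.1 to 9.97 (-1.81). Ncam1, a cell adhesion molecule that binds Fgfr1, went from 17.3 to 7.79 (-1.14), and Fgfbp3, a carrier of secreted FGFs, from 1.93 to 0.915 (-1.0). Sulf1 is also a gene that the study singled out in Kai1-/- cells, so that its place here is not independent.

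The other 6 modulators kept lay within 2-fold. Among them Sulf2, the relative of Sulf1, had 26.4 in WT and 34.9 in Kai1-/- PVCs, and Cdh2, Sdc4 and Hspg2 had log2 ratios from -0.08 to 0.07. Klb and Fgfbp1 were listed at 0 in both libraries, and Kl was below 0.01 in both, so that the Klotho co-receptors of endocrine FGFs were at or near 0.

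Of 25 adaptors and kinases from Frs2 to ERK, 24 were found, Hras not being listed, and 23 were kept. Of these 23, 0 were past 2-fold in either direction, against 7.81% lower and 7.98% higher among all genes kept. Their median log2 ratio was -0.06. Frs2, the adaptor that docks on FGF receptors, had an RPKM of 6.26 in WT and 4.64 in Kai1-/- PVCs, and Mapk3, which encodes ERK1, had 156 and 230. Rasa1, a negative regulator of RAS, lay at the line with 4.69 and 2.30, a log2 ratio of -1.0, and was past 2-fold without the added 0.1, at -1.03. The log2 ratios of the 23 genes thus ran from -1.0 to 0.56, the highest being that of Mapk3. Of 17 other genes known to respond to ERK, 14 were kept, and 2 were more than 2-fold lower and 0 higher, against 7.81% and 7.98% of all genes kept, with a median of -0.17. The lower ones were Ereg, a ligand of the EGF receptor, from 3.70 to 0.779 (-2.11), and Dusp1, a phosphatase of stress kinases, from 45.0 to 21.5 (-1.07). Of those within 2-fold, Fosl1 had 4.29 and 7.52, Dusp5, an ERK phosphatase of the nucleus, had 6.91 and 9.58, and Egr1 had 16.6 and 11.1. The ERK-responsive genes thus stood on either side of 0, with 8 below and 6 above, as the members Etv4, Dusp6 and Spry1 did.

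**Figure D5:**
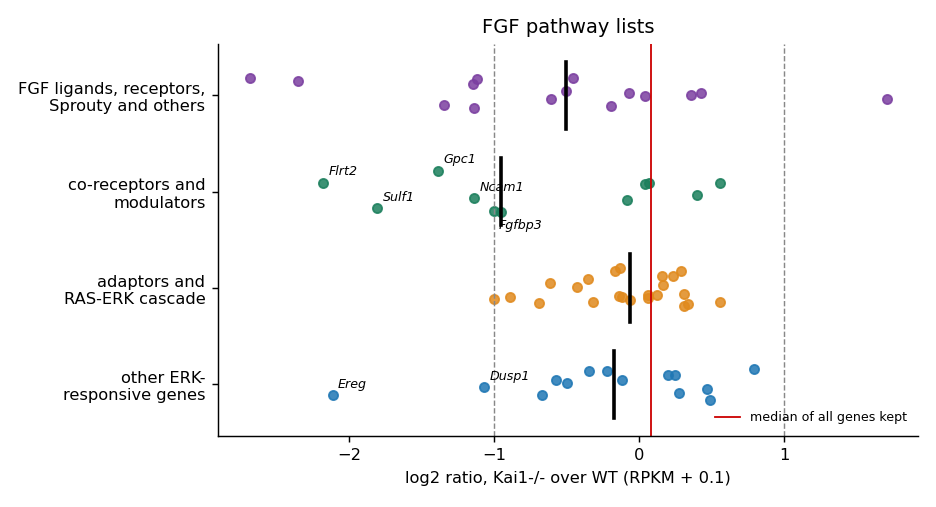
Each point is the log2 ratio of Kai1-/- to WT of a gene kept, with 0.1 added to either RPKM, in 4 rows for the 15 members and the 3 pathway lists, with black bars at the median of each row and a red line at the median of all genes kept. The co-receptor row has its median at -0.95 and 5 named genes below the dashed 2-fold line, of which Fgfbp3 is only just below it. No gene of the RAS-ERK row is past 2-fold on this scale, where Rasa1 lies at the line.

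Markers of the cell types that the cultures could hold also differed between the libraries. The summed RPKM of 10 mural markers was 4646 in WT and 2977 in Kai1-/- PVCs, most of it from Acta2, at 3823 and 2580. Of the 7 kept, 4 were more than 2-fold lower, against 7.81% of all genes kept, with a median log2 ratio of -1.04. The sum of 6 fibroblast markers was 1264 and 924, most of it from Col1a1, at 924 and 534. Of the 5 kept, 2 were more than 2-fold lower, against the same 7.81%, with a median log2 ratio of -0.79. All 7 endothelial markers were below an RPKM of 1 in WT, with a sum of 0.990, and their sum was 0 in Kai1-/- PVCs, with Emcn and Cldn5 listed at 0 in both libraries. The sum of the 6 macrophage markers found was 16.4 and 4.22, most of it from Csf1r, with Emr1 and C1qa listed at 0 in both. Csf1r and Lyz2, the only ones of them kept, were more than 2-fold lower, against the same 7.81% of all genes kept. Below the filter, Cd68 was at 1.17 in WT and 0.464 in Kai1-/- PVCs, and Ptprc was near 0 in both, at 0.0407 and 0.00697. The sum of 7 epithelial markers was 30.0 and 92.3, nearly all of it from Krt19, the only one kept, with Epcam and Krt5 listed at 0 in both. The mural, fibroblast and macrophage sums were thus lower in Kai1-/- PVCs, as were Fgf2, Fgf7, Fgf18 and the Sprouty genes, although the mural marker Rgs5 and the fibroblast marker Thy1, at 324 and 380, were higher. Krt19 was higher, as was Etv4, but the other epithelial markers above 0 were not alike. Cdh1 went from 0.593 in WT to 0.391 in Kai1-/- PVCs, and Krt14 from 0.0695 to 0.641. Krt8 and Krt18, at 0.0211 and 0.0282 in WT, were listed at 0 in Kai1-/- PVCs. The part of the cell type markers in the results was not tested. In RNA of a whole culture, fewer cells of a type and less RNA per cell cannot be told apart.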

How the data were processed

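RNA of primary aortic PVCs was sequenced from 1 WT and 1 Kai1-/- library. The authors aligned reads to mm9 (NCBI37) with TopHat 2.0.9 and Bowtie and deposited 1 RPKM value per RefSeq gene and library. How Cuffdiff scaled the libraries is not given in the sources used here, and such scaling would move all ratios alike.

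Lines of the deposited tables that named no gene (38) were dropped, and the 153 repeated symbols, none of them a member, were averaged. Ratios were log2((RPKM + 0.1)/(RPKM + 0.1)). A gene was kept where its RPKM averaged 1 or more. No test was possible. Reads were estimated by fitting low values of 5727 single-transcript genes over 800 bases to whole reads at a fragment length of 200 bases. Of 423 and 242 low values, 81.3% and 79.8% lay within 0.15 of an integer. Gene lengths for this were those of the longest GENCODE M1 coding transcript, so reads per gene are approximate. The interval code was tested on simulated data. All members with an RPKM of at least 1 in either library were named, together with low members listed at 0 in both or past 2-fold with an RPKM of at least 0.3. Genes kept of the pathway lists that were past 2-fold were also named. The members and lists were chosen with earlier results of these data known. Alternatives were other pseudocounts, scalings, filters and the sum of repeated symbols. Python 3.11.15, numpy 2.4.6, pandas 2.3.3, scipy 1.17.1 and matplotlib 3.10.9 were used.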

Additional observations from a re-analysis of the deposited data

How the results depend on the processing

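Under 9 alternatives, 127 log2 ratios of the 15 members kept were recomputed. Of these, 86 moved by no more than the distance from the middle of their counting interval to its end, and 41 moved further. The 7 members past 2-fold kept their direction in each alternative that kept them. All scalings tried lowered the Kai1-/- values, so the lower members could not change direction under them. Scaling to Actb, at 3691 in WT and 1926 in Kai1-/- PVCs (log2 ratio -0.94), would raise all ratios and was not tried. Hprt, Tbp and Sdha were higher in Kai1-/- PVCs, as Gapdh was, with log2 ratios of 0.70, 0.59 and 0.63. Spred1 came within 2-fold with 1 added to each RPKM, Fgfr1 passed 2-fold with equal sums of RPKM and with Gapdh scaling, and Fgfr2, Fgfr3 and Spred3 went below 0 with those scalings, Spred3 also with the median of all genes set to 0 and with equal upper quartiles. With equal upper quartiles, equal sums and Gapdh scaling, the median of the members was -0.77, -0.98 and -0.99, the log2 ratio of the ligand sum -1.49, -1.70 and -1.72 against -1.22, that of the sum of Fgfr1 to Fgfr4 -0.77, -0.98 and -1.0 against -0.49, and that of the sum of Sprouty, Spred and Dusp6 -1.19, -1.40 and -1.42 against -0.91. With the median of all genes set to 0, the receptor sum was at -0.58. These shifts follow from the scaling factors. Among all genes kept, these 3 scalings gave 1251, 1816 and 1856 lower and 447, 286 and 278 higher. When no gene was filtered, 1878 of 20211 genes were lower and 1205 higher, or 9.29% and 5.96%. Of the 37 members, 9 were then more than 2-fold lower and 2 higher. The members' median was 0 over all 37, since genes listed at 0 count as 0. With a mean RPKM of at least 5, 350 of 6518 genes were lower and 511 higher, or 5.37% and 7.84%. Of the 7 members left, 2 were lower and 1 higher. No paired analysis was possible because WT and Kai1-/- PVCs gave 1 library each. Fgf2, with about 19 estimated reads in the Kai1-/- library, has the widest interval of the 15 members.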
